A study of Mus musculus with 6 samples.

Results

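The Ikaros zinc finger genes Ikzf1, Ikzf2, Ikzf3, Ikzf4 and Ikzf5, the RUNX genes Runx1, Runx2 and Runx3, and Cbfb, which encodes the shared partner of the RUNX proteins, were followed in Th17 cells with and without a RORγt mutation. They were taken from the table of normalized read counts by gene symbol alone, and all 9 were found among its 16244 genes. RORγt is the nuclear receptor that defines the Th17 lineage, and N275D is the mouse counterpart of a human substitution in its ligand-binding domain. Naive CD4+ T cells from the spleen of WT or RORγtN275D knockin mice were activated through CD3 and CD28 and cultured for 3 days under pathogenic Th17 conditions, with 3 RNA-seq libraries per genotype. The cytokines were IL-6, IL-1β and IL-23. The methods describe these as added to a medium that also holds TGF-β and antibodies to IL-4 and IFN-γ, whereas the series description names IL-6, IL-1β and IL-23 alone. Mice of both sexes were 6 to 12 weeks old unless noted otherwise, and both genotypes were on a C57BL/6 background, with the mutation in the germline and so in every cell. The methods state that WT mice were purchased and that knockin mice came from another laboratory. Littermate controls are mentioned only for the transfer experiments. The WT stock is listed as C57BL/6NJ, and the substrain of the knockin mice is not given. The donors of these libraries are not specified, so that genotype, substrain and source of the mice cannot be told apart here. Whether the knockin donors were homozygous or heterozygous is not given for these libraries, nor is how many mice or cultures stand behind them, so that p-values measure the spread between libraries, which may be technical.

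RUNX proteins bind DNA through the Runt domain and need CBFβ, which does not bind DNA itself, for stable binding. Runx1 acts with RORγt in Th17 differentiation, Runx3 represses Cd4 and Il4 and activates Ifng, and Runx2 is best known as the master regulator of bone formation. Ikaros family proteins bind DNA through zinc fingers near one end and pair with each other through fingers at the other end, and they repress or activate genes together with chromatin remodelling complexes. Ikaros (Ikzf1) and Aiolos (Ikzf3) act in lymphocyte development, Helios (Ikzf2) and Eos (Ikzf4) are associated with regulatory T cells, and Pegasus (Ikzf5) is the most divergent member. Aiolos silences Il2 during Th17 differentiation.

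The RUNX genes share a sequence feature at their upstream (distal) promoters, which is shown because few other promoters held it. RefSeq windows of GRCm38.p6, the patch level of mm10, that run from 250 bases before to 50 after a transcription start were searched on both strands. The RUNX motif searched was TGTGGT. Each of the 3 distal RUNX windows held this motif as a tandem pair with 2 bases between the copies, and both copies lie on the strand opposite the gene and so appear in their reverse complement, ACCACA. The stretches below give the pair in capitals with 8 bases on each side, on the minus strand for Runx1 and Runx2 and the plus strand for Runx3.
Runx1 (chr16:92826025-92826054, positions 21 to 50 from the start): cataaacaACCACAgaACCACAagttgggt
Runx2 (chr17:44814583-44814612, positions 16 to 45 from the start): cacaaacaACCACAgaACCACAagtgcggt
Runx3 (chr4:135120503-135120532, positions -142 to -113 from the start): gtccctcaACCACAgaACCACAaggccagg
The stretches of Runx1 and Runx2 were identical at 27 of 30 positions, those of Runx1 and Runx3 at 19 and those of Runx2 and Runx3 at 21. The tandem pair was found in 7 of 32851 windows, or 0.0213%, and the other 4 belonged to Gm15462, Gm16225, Olfr24 and Gm12236. Only the search for the single motif was planned, so that this rarity describes the pair and is not a test. A single copy was found in 16.8% of all windows.

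A window was given for 6 of the 9 genes, with 9 windows in all. Ikzf2, Ikzf3 and Ikzf4 had none. The windows of Ikzf1, Ikzf5 and Cbfb, and the second, downstream window of Runx3, held neither the RUNX motif nor any other motif searched. The Ikaros motif was searched as TGGGAA. The core of the hypoxia response element was searched as ACGTG. The half-site of ROR receptors was searched as AGGTCA. The Runx2 window held the only ROR half-site among the members' windows, 3 bases before a further RUNX motif, and the half-site was found in 16.3% of all windows. This stretch is shown because Runx2 changed most between the genotypes, with both motifs in capitals.
Runx2 (chr17:44814679-44814738, minus strand, positions -111 to -52 from the start): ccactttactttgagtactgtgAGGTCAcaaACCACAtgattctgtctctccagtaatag
The distal Runx1 window held CACGTG, in which the hypoxia core reads on both strands with overlap and which is also an E-box, and the proximal window held 1 copy of the core. The core was found in 19.6% of all windows. The only Ikaros motif in the members' windows lay in the distal window of Runx3, and 25.6% of all windows held one. These matches are a description of the letters and not of binding.

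The libraries held between 17659035 and 18510878 reads on genes, taken from the values, which were whole multiples of 1 step per library. WT replicate 3 stood farthest from its group, with a median absolute deviation from the group mean of 0.0686 on the log2 scale, against 0.0371 to 0.0503 for the other 5 libraries. All 8 Th17 and CD4 T cell markers were detected. A point mutation does not show in gene totals, so the genotype labels could not be checked from them. Among markers of other cells, 7 B cell markers summed to between 1130 and 1168 normalized reads in WT and between 1722 and 1779 in mutant libraries, of which Ebf1 alone gave 967 to 1538, while Ms4a1 did not exceed 9.88. The 5 CD8 T and natural killer cell markers found summed to 192 to 225 and 289 to 316. The 5 myeloid markers summed to 46.4 to 52.5 and 43.1 to 56.9, with 1 called higher and 1 lower. Of these, Cd14 lay at 8.07 to 15.1 in WT and 22.1 to 24.0 in mutant libraries, and Adgre1 at 19.2 to 25.5 and 4.01 to 9.98. Genes were tested from a mean of 10 normalized reads. Adgre1, the gene called lower, reached it only through its WT level, so that nothing is read from its difference. The single gamma delta T cell marker found, Sox13, lay at 18.2 to 31.4 and 35.1 to 38.5. No marker was at 0 in every library, although the natural killer marker Klrb1c was at 0 in each mutant library and had at most 2.02 in WT. In bulk RNA, fewer cells of a type and less RNA per cell cannot be told apart.

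To ask which family members differ between genotypes, log2(normalized reads + 1) was compared with limma over 11908 genes, those whose mean reached 10 normalized reads. All 9 members passed this filter, and p-values were adjusted over all genes by the Benjamini-Hochberg method. Runx2 and Ikzf4 were higher in RORγtN275D Th17 cells, Ikzf1, Cbfb and Runx1 were lower, and Runx3, Ikzf2, Ikzf3 and Ikzf5 did not pass. The changes thus ran in both directions within each family. The 5 members called have to be read against a background of 50.9% of all genes called at an adjusted p under 0.05, 24.7% higher and 26.1% lower, so that the number called is near that of any genes. The same 5 members were those whose genotypes did not overlap, which 57.7% of all genes tested showed, 28.1% with the mutant above and 29.6% with it below. The 9 had a median of -0.06 on the log2 scale, against -0.0026 over all genes tested. None was called at a 2-fold minimum, against 3.59% of all genes tested.

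**Figure D1:**
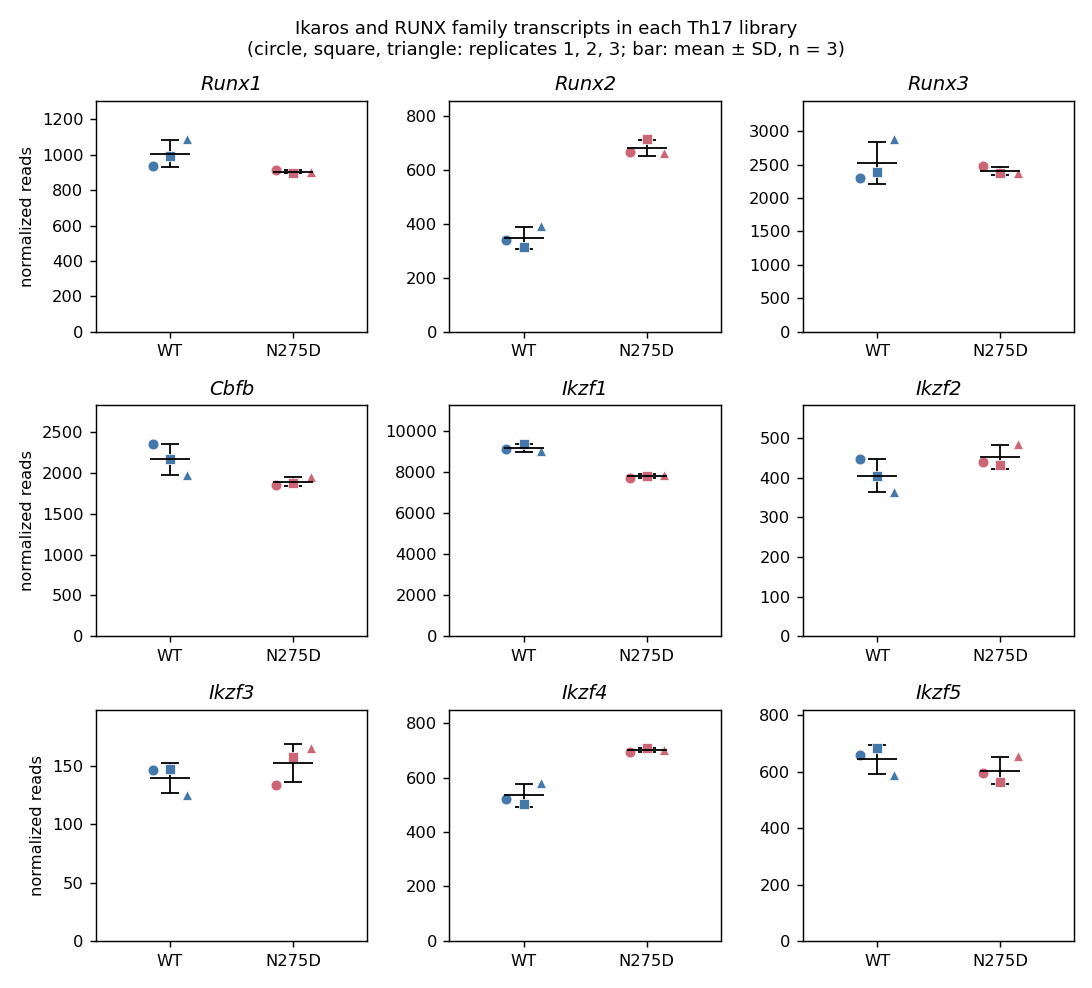
Normalized reads of each gene (vertical axes, each from 0) in the WT and N275D libraries, with 1 point per library and the mean ± SD of 3 libraries as bars. Runx2 and Ikzf4 lie higher in every mutant library, Ikzf1, Cbfb and Runx1 lie lower in every mutant library, and the other 4 genes overlap.

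Runx2 (GRCm38 chromosome 17, 44495987 to 44814797, minus strand) had the largest difference of the 9 genes. Its normalized reads were 340, 314 and 394 in WT replicates 1 to 3 and 668, 713 and 661 in the mutant replicates. Every mutant library lay far above the highest WT library, and WT replicate 3 was the highest of its group. The mean went from 349 ± 40.9 to 681 ± 28.5 (SD over 3 libraries), a ratio of 1.95. On the log2 scale the difference was 0.97 with a standard error of 0.08 and a 95% interval of 0.80 to 1.13 (limma, adjusted p = 3.83e-08). Among all genes tested, 351 had a larger increase. Leaving out each library in turn gave 0.89 to 1.06. The gene body of Supt3, on the opposite strand, covers part of Runx2, and Supt3 went from 179 to 231 normalized reads (log2 fold change 0.37, adjusted p = 0.00124 from limma). The library kit in the labels keeps strand, but whether the counting used it is not given in the sources used here. Whether exons of both genes overlap was not examined, and the part of Supt3 in the Runx2 reads was not tested.

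Runx1 (chromosome 16, 92601466 to 92826149, minus strand) had 938, 995 and 1087 normalized reads in the WT libraries and 912, 896 and 902 in the mutant libraries. The mutant libraries were closely grouped and all lay below the lowest WT library, by a small margin. The WT mean was 1007 ± 75.6 and the mutant mean 903 ± 8.42 (SD over 3 libraries). Limma gave a log2 fold change of -0.15 with a standard error of 0.06 (adjusted p = 0.0310). This call was lost without WT replicate 3, where the log2 fold change was -0.10 (adjusted p = 0.0964), and without each of the mutant replicates (-0.16, -0.15 and -0.15, adjusted p = 0.0654, 0.0910 and 0.0795 for replicates 1, 2 and 3).

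Runx3 (chromosome 4, 135120652 to 135177990, plus strand) was the most abundant RUNX transcript. It had 2293, 2392 and 2878 normalized reads in WT and 2476, 2370 and 2367 in mutant libraries. The genotypes overlapped, and WT replicate 3 stood above the other 5 libraries. The log2 fold change was -0.06 with a 95% interval of -0.20 to 0.07 (adjusted p = 0.442 from limma), and without WT replicate 3 it was 0.04 (adjusted p = 0.418).

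Cbfb (chromosome 8, 105170674 to 105217989, plus strand) had 2355, 2173 and 1974 normalized reads in WT and 1851, 1876 and 1949 in mutant libraries. The genotypes did not overlap, but WT replicate 3 was only just above the highest mutant library. The mean went from 2167 ± 190 to 1892 ± 51.2 (SD over 3 libraries). This was a difference of -0.19 on the log2 scale, with a standard error of 0.05 (limma, adjusted p = 0.00785). Without WT replicate 1 it was -0.13 (adjusted p = 0.0564), so that the call rests on that library. The calls of Cbfb and Runx1 were also lost under quantile normalization and in limma without a trended prior, which left Ikzf1 as the only member called lower.

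Ikzf1 (chromosome 11, 11685003 to 11772926, plus strand) was by far the most abundant transcript of both families. Its normalized reads were 9132, 9362 and 9007 in WT and 7698, 7797 and 7868 in mutant libraries. The libraries of each genotype were tightly grouped and the groups stood well apart. The mean fell from 9167 ± 180 to 7788 ± 85.4 (SD over 3 libraries), a ratio of 0.850. The difference was -0.24 on the log2 scale, with a standard error of 0.03 (limma, adjusted p = 2.35e-05). The difference was small beside that of other genes, since 40.0% of those tested changed more in absolute terms. Ikzf1 is also transcribed in B cells, whose markers summed to higher values in the mutant libraries, and their part in its level was not tested.

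Ikzf4 (chromosome 10, 128630843 to 128645991, minus strand), which encodes the Foxp3 partner Eos, had 520, 502 and 581 normalized reads in WT and 695, 707 and 702 in mutant libraries. All mutant libraries exceeded all WT libraries, and they differed little among themselves. The mean rose from 535 ± 41.6 to 701 ± 6.25 (SD over 3 libraries), a ratio of 1.31. The difference was 0.39 on the log2 scale, with a standard error of 0.06 (limma, adjusted p = 6.40e-05). Foxp3, the factor that defines regulatory T cells, stayed low in both genotypes, with 51.5, 41.4 and 59.9 normalized reads in WT and 39.9, 42.1 and 32.6 in mutant libraries. Its log2 fold change was -0.40 and did not pass (adjusted p = 0.0755 from limma). The 5 regulatory T cell markers, most of which activated T cells also express, summed to between 39322 and 40808 in WT and between 44604 and 46223 in mutant libraries, with 2 called higher and 2 lower, and the part of regulatory T cells in Ikzf4 and Ikzf2 was not tested.

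Ikzf2 (chromosome 1, 69531214 to 69687245, minus strand) had 447, 405 and 363 normalized reads in WT and 439, 430 and 485 in mutant libraries. WT replicate 1 lay within the mutant range, and the log2 fold change of 0.16 had a 95% interval of -0.01 to 0.32 (adjusted p = 0.0990 from limma). Without WT replicate 1 it was 0.23 and passed (adjusted p = 0.0259), and without WT replicate 3 it was 0.08 (adjusted p = 0.324). Ikzf3 (chromosome 11, 98464902 to 98546031, minus strand) was the scarcest member, with 146, 147 and 125 normalized reads in WT and 134, 158 and 165 in mutant libraries. The ranges overlapped, and the log2 fold change was 0.12 with the widest interval of the 9, from -0.10 to 0.35 (adjusted p = 0.360 from limma). Ikzf3 is expressed in B cells, whose markers were higher in the mutant libraries, and their part in its level was not tested. Ikzf5 (chromosome 7, 131388652 to 131410521, minus strand) had 661, 683 and 587 normalized reads in WT and 594, 563 and 656 in mutant libraries. Its log2 fold change of -0.09 had a 95% interval of -0.24 to 0.06 (adjusted p = 0.290 from limma), and it passed only without WT replicate 3 (-0.16, adjusted p = 0.0362). The gene bodies of Pstk, on the opposite strand, and Fgfr2 cover part of Ikzf5. Pstk rose from 145 to 201 normalized reads (log2 fold change 0.47, adjusted p = 0.000829 from limma), and Fgfr2 was near 0.

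**Figure D2:**
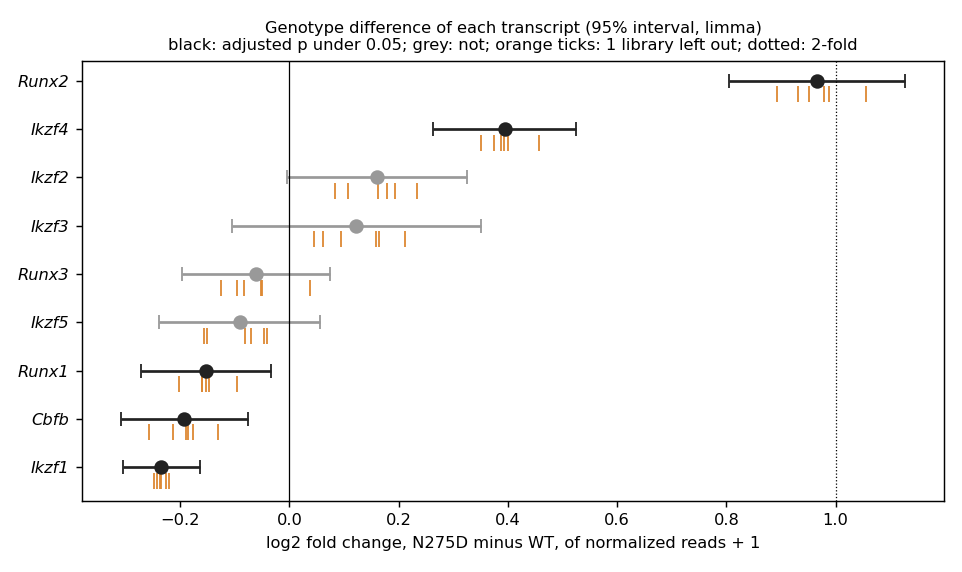
Log2 fold change of each gene, N275D minus WT (horizontal axis), with its 95% interval from limma; orange ticks show the value with each of the 6 libraries left out, and black marks the genes with an adjusted p under 0.05. Runx2 at 0.97 lies just under the dotted 2-fold line and apart from Ikzf4 at 0.39, and the intervals of Ikzf2, Ikzf3, Runx3 and Ikzf5 include 0.

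Levels of different genes were compared as normalized reads per kilobase of exon, from all exons annotated in GENCODE M21. In WT cells Ikzf1 led with 1587 ± 31.1, followed by Cbfb with 623 ± 54.7 and Runx3 with 504 ± 62.6 (SD, n = 3 each), and the ranges of Cbfb and Runx3 overlapped. Ikzf5 (113 ± 8.75), Ikzf4 (89.2 ± 6.94) and Runx1 (83.7 ± 6.28) came next. The ranges of Ikzf4 and Runx1 overlapped. Runx2 (39.5 ± 4.62) and Ikzf2 (34.9 ± 3.60) overlapped as well, and Ikzf3 was last with 15.9 ± 1.46. In mutant cells the first 3 and the last 2 places were held by the same genes. There Ikzf4 (117 ± 1.04) lay above Ikzf5 (106 ± 8.27), with no overlap, and Runx2 (77.0 ± 3.23) and Runx1 (75.1 ± 0.700) overlapped. Per kilobase of the longest coding transcript in place of all exons, Runx1 took the fourth place in both genotypes and lay above Runx2, and in mutant cells Ikzf5 (136.4) and Ikzf4 (136.2) were level with Ikzf5 first, so that these middle places depend on the length used.

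The RUNX transcripts overlapped between genotypes in sum but not in make-up. Their sum per kilobase was 627 ± 72.8 in WT libraries and 633 ± 12.2 in those of the mutant (SD, n = 3 each). Runx2 made up 6.70%, 5.95% and 6.28% of it in the WT libraries and between 11.7% and 12.8% in the mutant libraries, with means of 6.31% ± 0.372 and 12.2% ± 0.591 (SD over 3 libraries). The share of Runx3 went from 80.3% ± 0.637 to 75.9% ± 0.625 and that of Runx1 from 13.4% ± 0.590 to 11.9% ± 0.151. The Ikaros family sum was lower, with 1839 ± 35.5 reads per kilobase in WT and 1627 ± 25.0 in mutant cells. Ikzf1 held 86.3% ± 0.241 of it in WT and 82.9% ± 0.480 in mutant cells, and the share of Ikzf4 was 4.72%, 4.47% and 5.38% in WT and 7.22%, 7.28% and 7.08% in mutant libraries. Shares do not depend on the scaling between libraries, but each moves with the changes of the other members. The genotypes did not overlap in the share of any of the RUNX genes or of Ikzf1, Ikzf2, Ikzf3 and Ikzf4, and they overlapped for Ikzf5. In their own reads, Runx3, Ikzf2 and Ikzf3 did overlap. The shares of a family are bound to each other and are not separate results. In reads, 57.7% of all genes tested showed no overlap between genotypes.

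**Figure D3:**
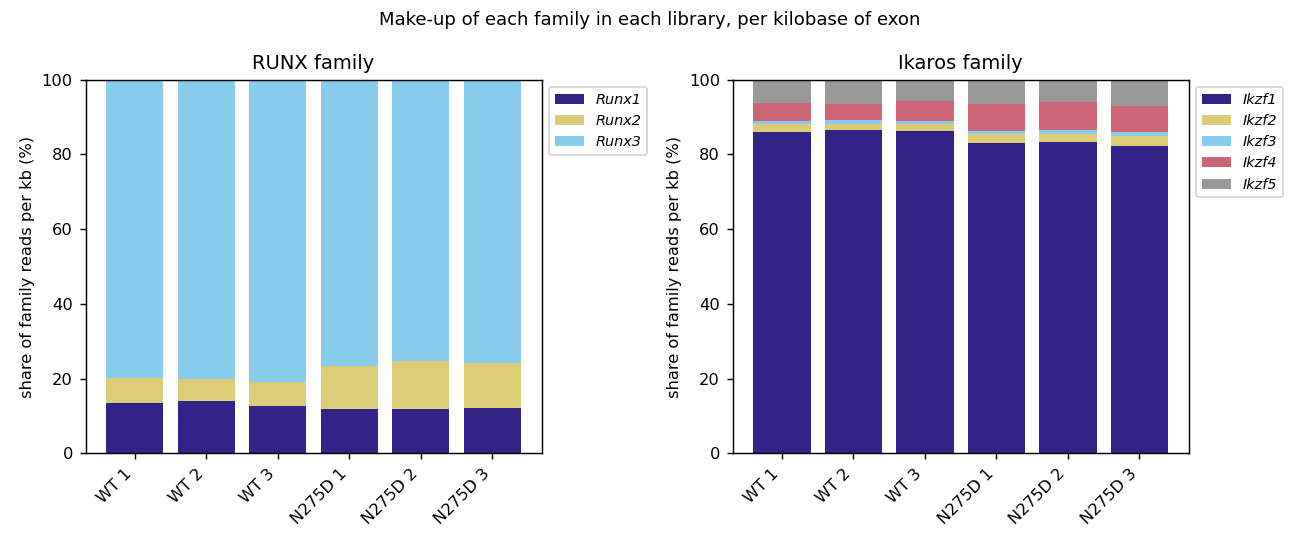
Share of each gene in its family's summed reads per kilobase of exon (vertical axis, percent) for the 3 WT and 3 N275D libraries, with 1 stacked bar per library. The Runx2 segment is larger in every mutant library, as is that of Ikzf4, while Runx3 and Ikzf1 hold most of their families throughout.

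Ratios within a library were compared by an exact two-sided permutation test, for which 3 libraries against 3 cannot give a p below 0.1. The log2 ratio of Ikzf1 to Ikzf3 reads was 5.95, 5.98 and 6.16 in WT and 5.84, 5.62 and 5.57 in mutant libraries, lower in every mutant library, with a mean difference of -0.36 (exact p = 0.1, adjusted p = 0.3 over 3 ratios). The log2 ratio of Runx1 to Runx3 was -1.32 ± 0.07 in WT and -1.41 ± 0.02 in mutant libraries (SD, n = 3 each, exact p = 0.3, adjusted p = 0.4). The log2 ratio of summed RUNX reads to Cbfb was 0.60, 0.77 and 1.14 in WT and 1.13, 1.08 and 1.01 in mutant libraries. WT replicate 3 had the highest ratio of all, and the genotypes overlapped (exact p = 0.4, adjusted p = 0.4).

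Genes written down as regulated by RUNX factors in T cells moved in both directions. Of 25 listed, 23 were tested (Il4 and Spi1 were not), of which 12 were called higher and 6 lower, with a median of 0.23 on the log2 scale. That is 78.3% called, against 50.9% of all genes (24.7% higher and 26.1% lower), in a list made with results for several of its genes known. At a 2-fold minimum 5 of the 23 tested were called, against 3.59% of all genes. The median over all genes tested was -0.0026. Ccl5 (1.82), the interleukin-7 receptor chain Il7r (1.34), the egress receptor S1pr1 (1.04) and the pore-forming Prf1 (1.01) rose most among the genes called. Il7r went from 592 ± 31.8 to 1502 ± 65.4 normalized reads and S1pr1 from 626 ± 24.2 to 1286 ± 24.0 (SD, n = 3 each). Among those called lower, Il2 (-2.27), the Th1 factor Tbx21 (-0.83), Csf2 (-0.64) and the T cell identity factor Bcl11b (-0.31) fell most.

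The CD4 and CD8 lineage genes controlled by RUNX factors gave a mixed picture. Cd4, which RUNX factors silence in CD8 T cells, had 8901, 9007 and 9520 normalized reads in WT and 7621, 7577 and 7575 in mutant libraries, with no overlap. Its log2 fold change was -0.27 (adjusted p = 1.16e-05 from limma). Cd8b1 rose from 98.9 ± 5.69 to 148 ± 1.19 normalized reads (SD over 3 libraries, log2 fold change 0.58, adjusted p = 0.000145 from limma), whereas Cd8a, at 32.6 ± 6.70 and 27.6 ± 2.67, did not pass (log2 fold change -0.22, adjusted p = 0.401 from limma). Of the other CD8 T and natural killer cell markers, Klrk1 and Klrd1 were also higher in mutant libraries. Klrb1c had at most 2.02 normalized reads in WT and 0 in each mutant library. The part of such cells was not tested. Zbtb7b, which encodes the CD4 lineage factor ThPOK and is silenced by RUNX factors in CD8 T cells, had log2 fold change -0.03 (adjusted p = 0.680 from limma). Itgae, the integrin chain CD103, was near the filter, with 14.3 ± 1.93 and 20.6 ± 6.13 normalized reads (adjusted p = 0.180 from limma).

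Of 23 genes written down as regulated by Ikaros family factors, 18 were tested (Ptcra, Rag1, Rag2, Igll1 and Vpreb1 were not), of which 10 were called higher and 6 lower, with a median of 0.24. The share called was 88.9%, against 50.9% of all genes (24.7% higher and 26.1% lower), in a list made with results for several of its genes known, and 5 of the 18 are also on the RUNX list (Il2, Ifng, Tbx21, Cd8a and Cd8b1). The interleukin-12 signalling factor Stat4 (0.84), Ifng (0.81) and Il10 (0.71) were among those that rose, Il10 from 46.3 ± 11.3 to 75.1 ± 5.11 normalized reads (SD, n = 3 each). Dntt, the template-independent DNA polymerase of developing lymphocytes, is counted among the 10 but entered the test only through its mutant level, with 8.99 ± 2.62 and 17.9 ± 5.90 normalized reads, so that nothing is read from its difference. Among the genes called, Il2, the Notch target Hes1 (-1.78), Tbx21 and the cell cycle inhibitor Cdkn1a (-0.44) fell most. Hes1 went from 79.1 ± 5.72 to 22.3 ± 0.719 normalized reads, and Notch1 from 7194 ± 438 to 5329 ± 72.1 (SD, n = 3 each). By contrast, Dtx1, another Notch pathway gene, was called higher, from 30.3 ± 6.97 to 48.8 ± 4.41 (log2 fold change 0.69, adjusted p = 0.00604 from limma). Notch3 did not pass (log2 fold change -0.18, adjusted p = 0.576 from limma). Il2, which Ikaros family proteins repress, was lower in mutant cells, where Ikzf1 was lower, Ikzf4 higher and Ikzf3 not called. Any link between Il2 and these genes was not tested.

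The cofactors of both families moved in both directions. Of 36 listed partner symbols, 33 were tested (Cbfa2t3 and Runx1t1 were not, and Aes is an older symbol of Tle5), of which 9 were called higher and 13 lower (66.7% called, against 50.9% of all genes, 24.7% higher and 26.1% lower), and their median was -0.05 on the log2 scale. The corepressor Ctbp2 rose most, from 96.7 ± 7.80 to 339 ± 25.3 normalized reads (SD over 3 libraries). Its log2 fold change was 1.80 (limma, adjusted p = 2.35e-10). Its relative Ctbp1, at 3524 ± 71.0 and 3245 ± 54.2, was slightly lower (-0.12). RUNX proteins bind corepressors of the Groucho family through their own C terminus. Among Groucho family genes, Tle1 (0.89), Tle2 (0.69), Tle4 (0.20) and Tle5 (0.20) were called higher and Tle3 (-0.30) lower. For Tle5 the genotypes overlapped, with 3252, 3141 and 3945 normalized reads in WT and 4143, 3899 and 3775 in mutant libraries. Tle2 was near the filter, with 13.3 ± 0.708 and 22.6 ± 5.68 normalized reads (SD over 3 libraries). Cereblon (Crbn), the substrate receptor through which thalidomide-type drugs degrade Ikaros proteins in human cells, rose (0.39). The remodelling ATPases Smarca4 (-0.29) and Chd3 (-0.28) and the methyltransferase Prmt1 (-0.27) fell. Of the nucleosome remodelling and deacetylase complex, Chd4, the main partner of Ikaros, went from 18111 ± 436 to 16021 ± 394 normalized reads (log2 fold change -0.18, adjusted p = 0.000370 from limma), and Rbbp4 (-0.24), Rbbp7 (-0.24), Gatad2a (-0.21), Mbd3 (-0.19), Mta2 (-0.18) and Mta1 (-0.15) were called lower as well. Mta3 (0.32) was called higher, and Hdac1 (0.01), Hdac2 (-0.06), Mbd2 (-0.03) and Gatad2b (0.11) did not pass. The number of partners called higher was 5 without WT replicate 1, 5 without WT replicate 2 and 4 without N275D replicate 1.

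**Figure D4:**
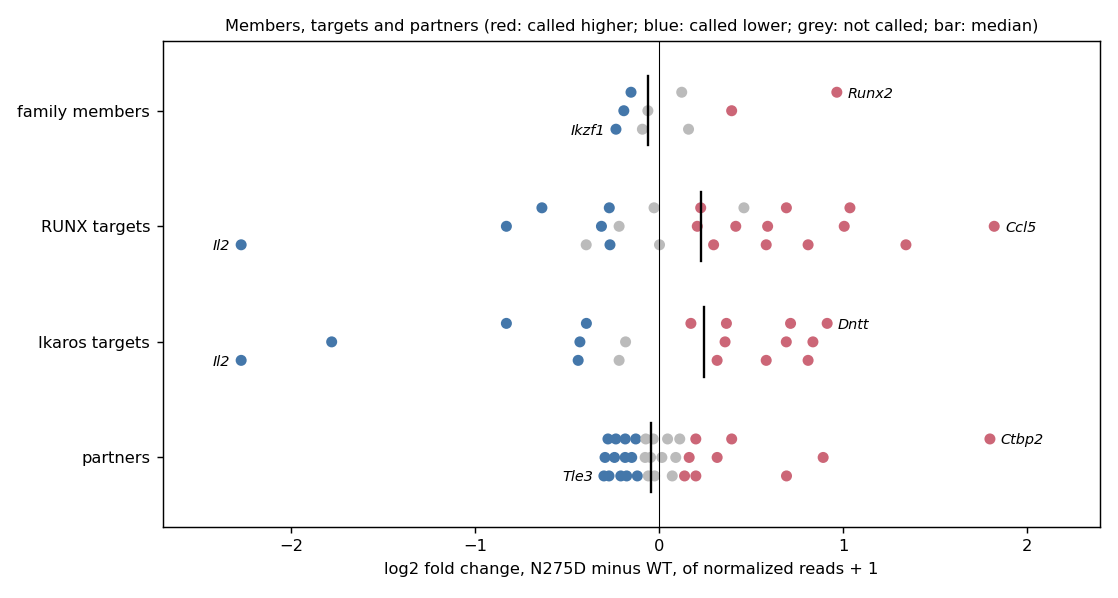
Log2 fold change, N275D minus WT (horizontal axis), of the 9 family members and of the tested RUNX targets, Ikaros family targets and partners, with 1 point per gene and a bar at each median. Target genes spread from -2.27 for Il2 to 1.82 for Ccl5, and the partners reach from -0.30 for Tle3 to 1.80 for Ctbp2.

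The genes whose log2 values followed those of Runx2 most closely over the 6 libraries, among 9580 others with a mean of at least 100, were Ndst1, Add1 and Dap, with Pearson r of 1.00, 0.998 and 0.998. Their own log2 fold changes were 0.16, 0.32 and 0.52. With 2 genotypes and 6 libraries such values are common, since 781 genes had r above 0.95, and they are given as a description.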

How the data were processed

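RNA-seq of 3 WT and 3 RORγtN275D Th17 libraries was analysed, with genotype and replicate taken from the labels. Per the methods, the authors' pipeline comprised adapter trimming, STAR alignment to mm10, featureCounts and DESeq2, the latter run by the authors. The signal values the authors deposited are normalized reads per gene, each a whole multiple of 1 step per library (tolerance 1e-06 of the value). The authors also deposited a log2 fold change, a q-value (p-value adjusted), group averages and a transcript number (other), which were not used. Every per-sample column was mapped to its library.

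A pseudocount of 1 was added before taking log2, which understates the changes of low genes, and genotypes were compared with limma (version 3.58.1, R 4.3.3, trended prior, no block). The median SD within a genotype was 0.08. The script was tested on simulated data. The members, lists and rules were chosen with earlier results of these data known. Named were all members, the 4 largest increases and decreases called in each list, and 10 genes listed by name. Others were chosen after their values were seen (Cd8b1, Klrk1 and other markers, Notch1, Notch3, Dtx1, Ctbp1, Tle4, Tle5, Chd4, the other listed members of its complex and overlapping genes). Coordinates are from GENCODE M21 (GRCm38). Protein sequences were not used here. One gene listed by name is not reported here.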

Additional observations from a re-analysis of the deposited data

How the results depend on the processing

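Alternatives were pseudocounts of 0.1 and 10, a filter on the mean at 0 or at 100, TMM and quantile scaling, eBayes without a trend, the replicate number as a block and each library left out. Runx2, Ikzf4 and Ikzf1 kept their direction and call in all 14, with log2 fold changes of 0.89 to 1.06, 0.35 to 0.46 and -0.25 to -0.18. The number of members called lower was 1 under quantile normalization and 1 without a trend, and 2 to 3 with a library left out. Ikzf3 (-0.0103) and Runx3 (0.0025) changed sign under quantile normalization without being called in either fit, and Runx3 lay between -0.13 and 0.0375 with a library left out. The cause was not tested. The number of partners called higher was 4 to 9 with a library left out. Over all genes, the calls at 2-fold were 325 higher and 102 lower. They were 195 and 64 with a pseudocount of 10, 517 and 186 with all genes above 0, and 119 and 43 with a mean of at least 100, where fewer genes were tested.

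Libraries with the same number did not deviate together (r = -0.05, 0.04 and -0.08 for replicates 1, 2 and 3), so the numbers were not taken as pairs. With the replicate block, 2 members were called higher and 3 lower, with 2805 genes called higher and 2922 lower over all genes. Count models on whole reads, although planned, were not run. Ikzf3, the scarcest member, had the widest interval, and the part of depth in it was not tested.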
